A study of Mus musculus with 15 samples.

Results

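The entries miR-720, miR-1937 and miR-5097 were annotated as miRNAs on the array and are now regarded as fragments of tRNAs. They were selected by name from the scanner output, and 4 of the 696 mouse miRNA entries matched. On the array they are named mmu-miR-720_v18.0, mmu-miR-1937b_v16.0, mmu-miR-1937c_v16.0 and mmu-miR-5097, and they are called miR-720, miR-1937b, miR-1937c and miR-5097 here. Each entry was measured by 2 probes with 10 spots each, 80 spots in all. The entries were taken up because they lay among the lowest differences between CR and SD on these same arrays. Their comparisons with CR are therefore given as a description without a test, and Met against SD is the comparison that was tested.

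The livers came from male B6C57/J mice (spelled as labeled), 1 year old when lifelong feeding of the diets began, and the age at tissue collection was not labeled. SD mice ate the AIN-93G diet ad libitum, CR mice received the AIN-93G diet at 40% caloric restriction, and Met mice ate the AIN-93G diet ad libitum with 0.1% w/w metformin. There were 5 mice per group and 1 array per mouse, and no genetic change or other agent was labeled in any group. The arrays were on 2 slides. Slide 1 carried the 5 SD mice with Met mice 1, 2 and 3, and slide 2 carried the 5 CR mice with Met mice 4 and 5. CR and SD were thus never on the same slide, and diet and slide cannot be told apart for that pair except through the Met arrays.

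tRNAs are transcribed by RNA polymerase III, trimmed at both ends, and given a CCA end by a dedicated enzyme before they carry amino acids to the ribosome. Cleavage of mature or precursor tRNAs releases fragments, some of about the size of a miRNA. This is how some of them came to be listed as miRNAs from small RNA sequencing. miR-720 is the best known case and matches a tRNA for threonine. The arrays cannot separate a fragment from other RNAs that bind the same probe, and the files give no probe sequence, so the tRNA origin of the signals was not checked here. In bulk liver, fewer cells of a type and less RNA per cell cannot be told apart.

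The liver-specific miR-122-5p, the main miRNA of hepatocytes, was detected on all arrays, with z-scores from 5.77 to 6.40. The neuronal miR-124-3p and miR-9-5p and the heart muscle miR-208a-3p were detected on 0 arrays. The scanner software detected 151 to 205 entries per array. An entry was tested if every array of some group detected it, which held for 178 entries, and the 4 tRNA-related entries were among the 139 detected on all 15 arrays. None of their 1200 spots was saturated. All spots were well above background apart from the 10 spots of 1 miR-5097 probe on the array of CR mouse 3. The spots of a probe on 1 array agreed closely, with a median coefficient of variation of 2.50% over the 120 pairs of a probe and an array. It was under 10% in 118 of them, and the highest, 23.98%, was that of the same dim miR-5097 probe in CR mouse 3.

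The z-score of an entry is the natural log of its signal, relative to the mean of all spots of the array and in units of their standard deviation. All 4 entries were highest on average in SD, lower in Met and lowest in CR. For mmu-miR-720_v18.0, the z-scores of SD mice 1 to 5 were 4.22, 4.46, 3.68, 4.42 and 2.78. Those of CR mice 1 to 5 were 2.48, 2.04, 1.57, 2.63 and 2.99, and those of Met mice 1 to 5 were 2.67, 4.30, 4.20, 2.56 and 3.997. SD mouse 5 lay below CR mouse 5, so the SD and CR groups overlapped, and Met mice 1 and 4 lay inside the CR range while the other Met mice lay inside the SD range. The difference between CR and SD was -1.57 (limma standard error 0.405), a Z ratio of -9.45. The Z ratio is the difference in units of the standard deviation that such differences have among all 696 entries. This difference was the lowest of the 178 tested. Between CR and Met the difference was -1.20, a Z ratio of -7.76.

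mmu-miR-1937b_v16.0 had z-scores of 7.72, 8.46, 7.76, 8.33 and 7.35 in SD mice 1 to 5, 6.78, 6.20, 6.41, 7.09 and 7.08 in CR mice 1 to 5, and 7.03, 8.23, 7.99, 6.96 and 7.85 in Met mice 1 to 5. All CR mice lay below all SD mice, and Met mice 1 and 4 again fell in the CR range. The difference between CR and SD was -1.21 (limma standard error 0.280), a Z ratio of -7.27, and that between CR and Met was -0.898, a Z ratio of -5.79. This entry was so bright that 225 of its 300 spot values were taken by the software from a second scan at lower gain and scaled up. That was so for 19 or 20 of 20 spots on each SD array, for 10, 0, 0, 10 and 20 on the arrays of CR mice 1 to 5, and for 10 or more on each Met array. The part of that scaling in the result was not tested. No spot of the other 3 entries came from the low-gain scan.

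For mmu-miR-1937c_v16.0, listed in the same miRNA series as miR-1937b, the z-scores were 3.38, 3.98, 3.70, 3.82 and 3.11 in SD mice 1 to 5, 2.65, 1.95, 1.92, 2.50 and 2.80 in CR mice 1 to 5, and 2.65, 3.76, 3.65, 2.62 and 3.58 in Met mice 1 to 5. CR and SD mice did not overlap and Met mice 1 and 4 lay among the CR mice, with a difference of -1.24 (limma standard error 0.262) and a Z ratio of -7.44. The difference between CR and Met was -0.890, a Z ratio of -5.74.

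The z-scores of mmu-miR-5097 were 2.01, 2.35, 2.05, 2.28 and 1.42 in SD mice 1 to 5, 0.939, 0.296, 0.0549, 0.992 and 1.39 in CR mice 1 to 5, and 1.11, 2.13, 2.09, 1.01 and 1.94 in Met mice 1 to 5. CR mouse 5, the highest in CR, lay just below SD mouse 5, the lowest in SD, so these groups did not overlap, and Met mice 1 and 4 lay within the CR range. The difference between CR and SD was -1.29 (limma standard error 0.281), a Z ratio of -7.74, and that between CR and Met was -0.924, a Z ratio of -5.95.

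**Figure D1:**
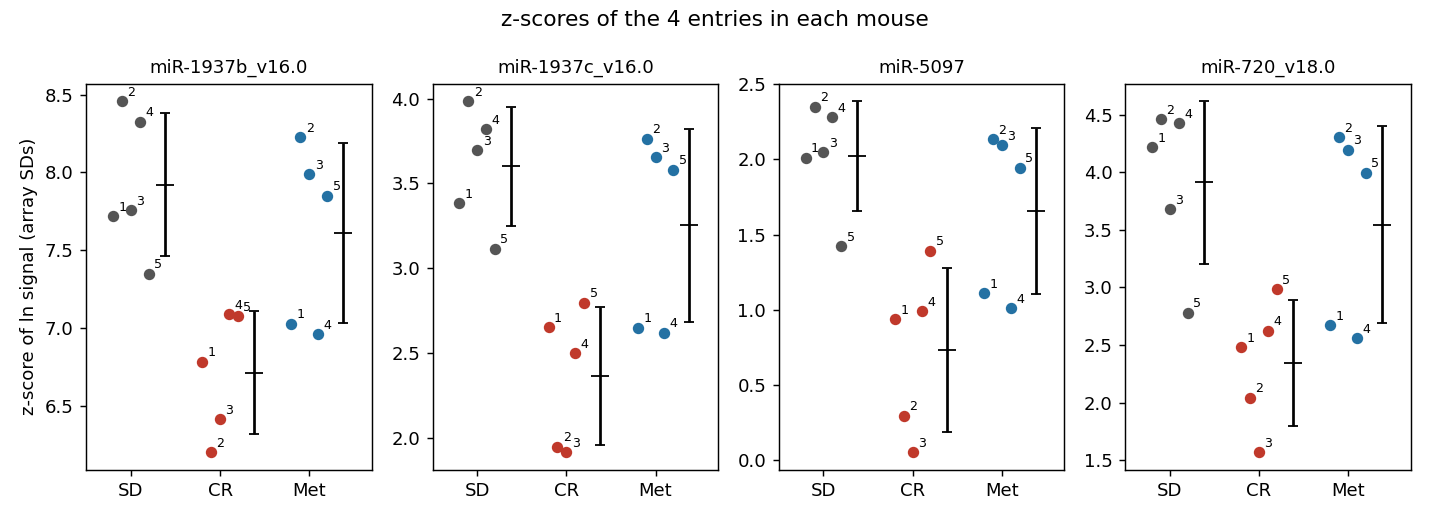
z-score of the natural log of the signal (vertical axis, in standard deviations of the array) for each of the 4 entries in SD, CR and Met mice, with 1 point per mouse labeled by its number and the mean and standard deviation (n = 5) as a bar beside the points. Met mice 1 and 4 sit within the CR range in all 4 panels, and SD mouse 5 is the lowest SD mouse in all 4.

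Of the 4 entries, 3 had all CR mice below all SD mice, and 7.87% of all tested entries did. All 4 met the study's limits between CR and SD (p of 0.05 or less, adjusted p of 0.3 or less and an absolute Z ratio of 1.5 or more) as lower in CR, where 14.6% of all tested entries did. All 4 also met them between CR and Met, against 16.3% of all tested entries, while 0 of 4 had groups that did not overlap there, against 8.99%. Nothing is read from these counts, since the entries were chosen for this contrast, and the comparisons of CR with SD and with Met share the CR arrays. With the slide as a block, none of the 4 met the limits in either comparison, where 7.3% (CR against SD) and 14% (CR against Met) of the tested entries did so as lower in CR. The block did not turn any direction. The blocked differences between CR and SD were -1.12 for miR-720, -0.867 for miR-1937b, -0.981 for miR-1937c and -0.985 for miR-5097. Their standard errors were larger than without the block, from 0.469 to 0.718. Within slide 2 alone, 5 CR arrays against 2 Met arrays, the differences ran from -0.935 for miR-720 to -0.693 for miR-1937b.

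Metformin against the standard diet was tested. The mean z-score was lower in Met for all 4 entries, but the differences were within the spread between mice. They were -0.367 for miR-720 (limma standard error 0.405, Z ratio -6.03), -0.311 for miR-1937b (0.280, -5.10), -0.347 for miR-1937c (0.262, -5.69) and -0.364 for miR-5097 (0.281, -5.97). These were the 4th to 7th lowest differences of the 178 tested. Limma's adjusted p was 0.930 for each of the 4. Two-sided exact permutation tests, each with 252 splits of the 10 arrays, gave p = 0.452 for miR-720, p = 0.357 for miR-1937b, p = 0.270 for miR-1937c and p = 0.222 for miR-5097. None of the 4 met the limits, with 0 at an unadjusted limma p of 0.05 or less, while 1.12% of all tested entries met the limits as lower in Met. In 0 of the 4 did all Met mice lie below all SD mice, against 1.69% of all tested entries. This comparison shares the SD arrays with the one that chose the entries. Its p-values measure only the spread between these arrays, 1 per mouse, which holds mouse, labeling and scanning together, and for Met also the slide. Z ratios were formed with a divisor of 0.0609 for Met minus SD and of 0.166 for CR minus SD, so equal Z ratios stand for unequal differences in these comparisons. Within slide 1, 3 Met arrays against 5 SD arrays, the differences were between -0.244 and -0.174 and the exact permutation p was between 0.482 and 0.679. With the slide as a block, limma's adjusted p was 0.992 for each, and 0 of the 4, against 0% of all tested entries, met the limits.

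The Met mice were widely spread on these entries. Mice 2, 3 and 5 lay inside the SD range and mice 1 and 4 lay below the lowest SD mouse in each of the 4 entries. Met mice 1 and 4 were on different slides, and each slide also held at least 1 of the high Met mice. The median Z ratio over the 4 entries between Met and SD was -5.83, and it was -2.91 without Met mouse 1 and -3.03 without Met mouse 4.

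**Figure D2:**
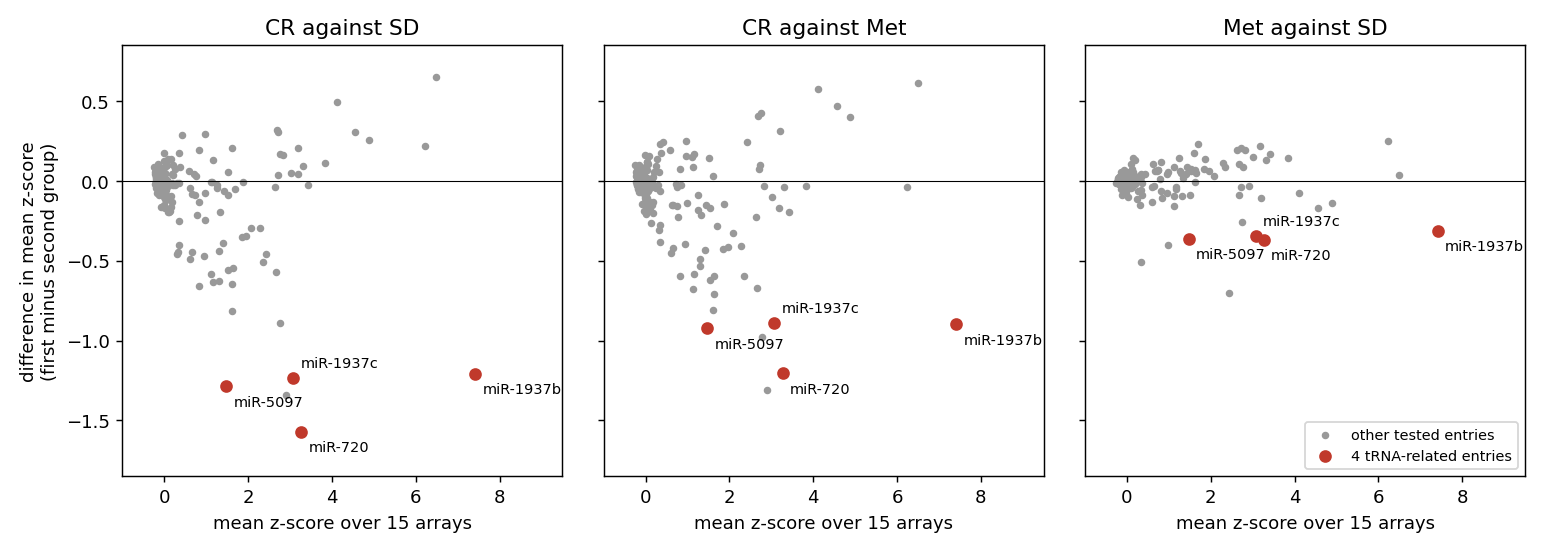
Difference in mean z-score (vertical axis, first group minus second group) against the mean z-score over 15 arrays (horizontal axis) for the 178 tested entries in the 3 comparisons, with the 4 tRNA-related entries in red. All 4 lie near the bottom in each panel, at ranks 1, 3, 4 and 5 from the lowest of 178 in CR against SD, 2, 4, 5 and 6 in CR against Met, and 4, 5, 6 and 7 in Met against SD, where the differences are smaller (-0.367 to -0.311).

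On the unscaled signal, background-subtracted and on the log2 scale, the same order of groups held. The log2 difference between CR and SD was -1.83 for miR-1937b (limma standard error 0.369), -1.69 for miR-1937c (0.351), -2.14 for miR-720 (0.515) and -2.45 for miR-5097 (0.580). Taken from these means of log2 signals, the signals were 3.55, 3.24, 4.41 and 5.46 times as high in SD as in CR. The CR mean of miR-5097 includes CR mouse 3, at a log2 signal of 4.46, where the dimmer probe was not well above background. Between CR and Met the log2 differences ran from -1.92 for miR-5097 to -1.28 for miR-1937c. Between Met and SD they ran from -0.53 for miR-5097 to -0.42 for miR-1937c, each with a standard error of 0.351 or more. The unscaled signal keeps any difference in labeling or scanning among arrays, and over all tested entries the median log2 difference was -0.30 for CR minus SD, -0.41 for CR minus Met and 0.08 for Met minus SD. The 100 positive control spots of the hur series had a mean log2 signal of 14.41 in the 5 CR mice and 14.07 in the 5 SD mice. Another set of control spots, the bright corner spots described below, went the other way. Their linear signal averaged 28.8 in CR and 161 in SD. The part of labeling or scanning in the differences was not tested.

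Both probes of an entry gave nearly the same log2 difference between CR and SD. For miR-5097 they gave -2.43 and -2.46, for miR-720 -2.17 and -2.11, for miR-1937c -1.71 and -1.68, and for miR-1937b -1.90 and -1.75. On the z-score scale, where background is not subtracted, the pair of miR-5097 probes disagreed more, with -1.004 for the dimmer probe and -1.57 for the brighter one. On the array of CR mouse 3 the dimmer probe had a background-subtracted signal of 11.8 and the brighter one 42.6.

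**Figure D3:**
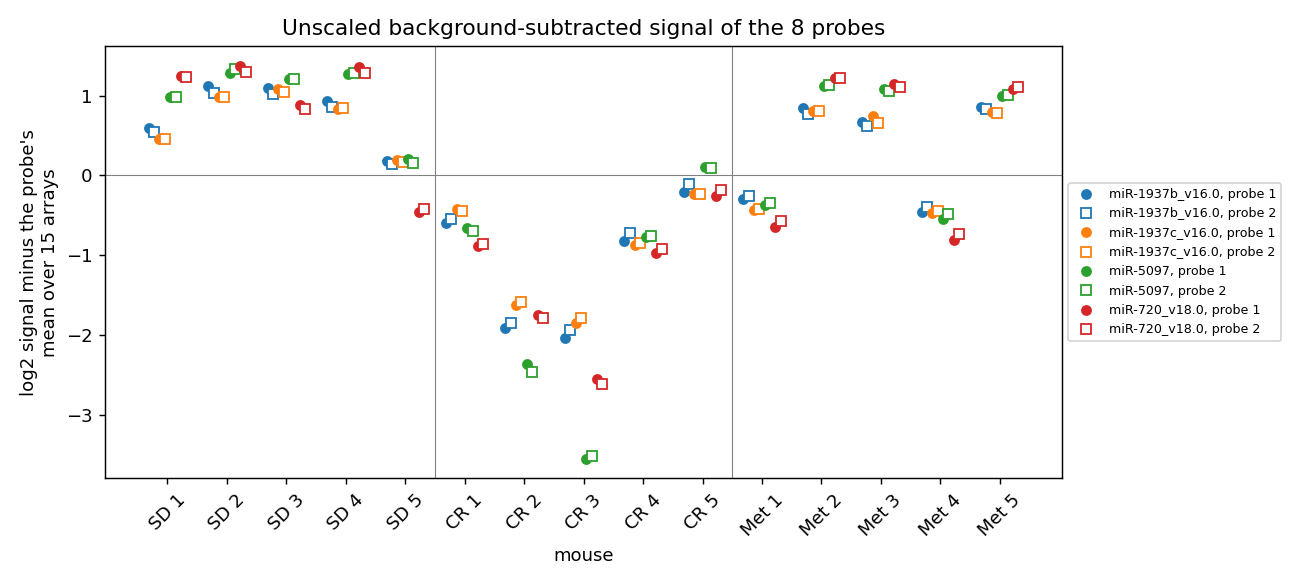
Background-subtracted, unscaled log2 signal of each of the 8 probes in each mouse, minus that probe's own mean over the 15 arrays, with filled circles and open squares for the first and second probe of an entry. The pair of probes of an entry lies close together in every mouse, all entries are lowest in CR mice 2 and 3, and the entries lie farthest apart in CR mouse 3.

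The 4 entries varied together from mouse to mouse. SD mouse 2 was the highest and SD mouse 5 the lowest SD mouse in all 4. Met mouse 2 was the highest and Met mouse 4 the lowest Met mouse in all 4, and the order of the 5 Met mice was identical for the 4 entries. In CR, mouse 3 was the lowest for 3 entries and mouse 2 for miR-1937b. As a description over the 15 arrays, which share labeling, scanning and the difference between groups, the Pearson correlation of z-scores was between 0.960 and 0.987 for the 6 pairs of these entries. Over all 15051 pairs of the other 174 tested entries, the median was 0.0307, with 5th and 95th percentiles of -0.743 and 0.854. The 4 entries were chosen for their low values in CR, which by itself favors high correlations among them. The log2 signals of miR-1937b and miR-1937c kept the most constant distance. Their difference had a standard deviation of 0.12 over the 15 arrays, while each signal by itself had one of 0.997 and 0.929. Over the 15 arrays the signal of miR-5097 spanned a 28.7-fold range, that of miR-720 15.1-fold, that of miR-1937b 8.39-fold and that of miR-1937c 7.37-fold. The lowest signal of each came from CR mouse 3, where 1 miR-5097 probe was not well above background, and without that mouse the ranges were 13.1-fold, 8.60-fold, 7.76-fold and 6.37-fold in the same order.

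The 4 entries carried a large share of all miRNA signal on these arrays, and most of that share came from miR-1937b. Each of the 696 entries has 20 spots, so the background-subtracted signals were summed over all 13920 spots. A share of signal is not a share of molecules, since probes differ in brightness. The share of the 4 entries was 41.0%, 53.9%, 43.0%, 49.6% and 30.5% in SD mice 1 to 5. It was 22.0%, 13.4%, 14.2%, 24.4% and 28.3% in CR mice 1 to 5, and 25.8%, 47.2%, 41.3%, 24.0% and 43.8% in Met mice 1 to 5. The CR mice all lay below the SD mice, and Met mice 1 and 4 lay in the CR range. miR-1937b alone gave 39.4% ± 7.82 of the summed signal in SD, 18.7% ± 5.90 in CR and 32.9% ± 9.30 in Met (mean ± standard deviation, n = 5). miR-720 gave 2.47% ± 0.983 in SD and 0.897% ± 0.342 in CR, and the other pair less than that on average.

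The summed signal of the whole array was compared with and without these entries. With them, the log2 of the sum in CR minus that in SD was -0.69 (standard error 0.181). Without them, the sum over the other 692 entries, in units of 1000000, was 1.68, 1.37, 2.09, 1.47 and 1.88 in SD mice 1 to 5, and 1.83, 1.37, 1.15, 1.40 and 1.76 in CR mice 1 to 5. These groups overlapped, and the log2 difference was -0.18 (standard error 0.166). The entries left out were chosen for their low values in CR, which by itself favors a smaller difference without them, and CR and SD shared no slide, so no test is given. In Met mice 1 to 5 the sum without the 4 entries was 1.78, 1.52, 1.73, 1.80 and 1.77 in the same units. The log2 difference without the 4 entries was 0.04 for Met minus SD (two-sided exact permutation p = 0.754 over 252 splits) and -0.21 for CR minus Met. With the 4 entries it was -0.14 for Met minus SD and -0.55 for CR minus Met. Within slide 1, Met minus SD was -0.00326 without the 4 entries (exact permutation p = 1 over 56 splits), and within slide 2, CR minus Met was -0.27. The SD arrays took part in the choice of the entries left out, so nothing is read from these p-values.

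**Figure D4:**
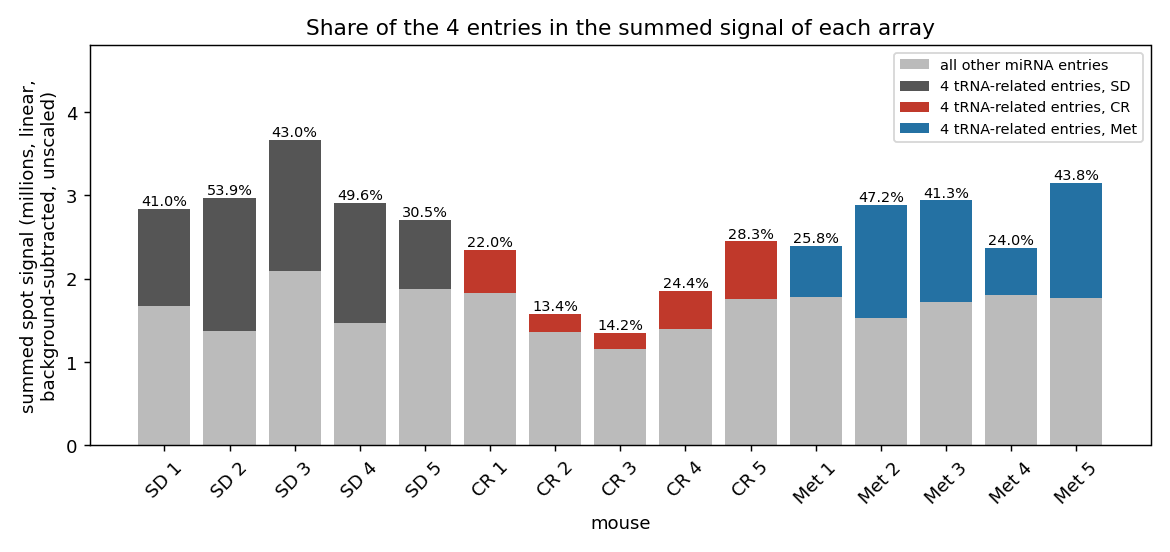
Summed background-subtracted spot signal of each array (vertical axis, in units of 1000000, linear and unscaled), split into all other miRNA entries (light gray) and the 4 tRNA-related entries (dark gray for SD, red for CR, blue for Met), with their share in percent above each bar. The colored part runs from 13.4% in CR mouse 2 to 53.9% in SD mouse 2, while the light gray parts of SD and CR overlap.

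Among the 174 other tested entries, the z-score that followed the mean of the 4 most closely over the 15 arrays was that of miR-212-3p, with a Pearson correlation of 0.946. miR-101b-3p (0.825) and miR-19b-3p (0.824) came next, the median over the 174 was 0.0492, and miR-212-3p was the only one above 0.9. miR-212 is a neuronal and activity-regulated miRNA made from a shared transcript with miR-132, miR-101b belongs to a family known for targeting Ezh2, and miR-19b is part of the miR-17-92 cluster. Their mature sequences in RefSeq (GRCm38.p6) are shown so that the entries can be told apart, with the seed, bases 2 to 8, in capitals. The 3 seeds differ.
miR-212-3p: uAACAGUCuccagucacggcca
miR-101b-3p: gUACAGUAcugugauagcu
miR-19b-3p: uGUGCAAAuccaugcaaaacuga

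miR-212-3p had z-scores of 0.732, 0.620, 0.462, 0.574 and 0.164 in SD mice 1 to 5, 0.112, 0.0166, -0.114, 0.0346 and 0.214 in CR mice 1 to 5, and 0.0793, 0.553, 0.520, 0.0837 and 0.563 in Met mice 1 to 5. SD mouse 5 and Met mice 1 and 4 lay in the CR range. Met mice 1 and 4 did so for all 4 tRNA-related entries, and SD mouse 5 for miR-720 alone. The z-scores of miR-101b-3p did not separate the Met mice in that way, with 0.955, 0.983, 1.05, 0.890 and 1.099 in Met mice 1 to 5. CR mice 2 and 3 stood low, at -0.0294 and -0.0756, with the other CR mice at 0.554 or more. For miR-19b-3p the same 2 CR mice had -0.123 and -0.140, the other CR mice 0.422 or more, and the Met mice 0.603 to 0.856.

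Control spots differed between the groups as well. The bright corner spots, 10 control spots at the array corners that do not measure a mouse miRNA, had median background-subtracted signals of 133, 152, 148, 325 and 46.7 in SD mice 1 to 5. They were 34.96, 22.7, 20.5, 29.8 and 36.2 in CR mice 1 to 5, and 69.8, 151, 119, 127 and 142 in Met mice 1 to 5. CR arrays lay below all others, and SD mouse 5 was the lowest SD mouse here too. Of the Met mice low on the 4 entries, mouse 1 was the lowest Met mouse on the corner spots as well. Met mouse 4 was not low on them, although it was the lowest Met mouse for the 4 entries. The part of what the corner spots show in the result for the 4 entries was not tested.

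**Figure D5:**
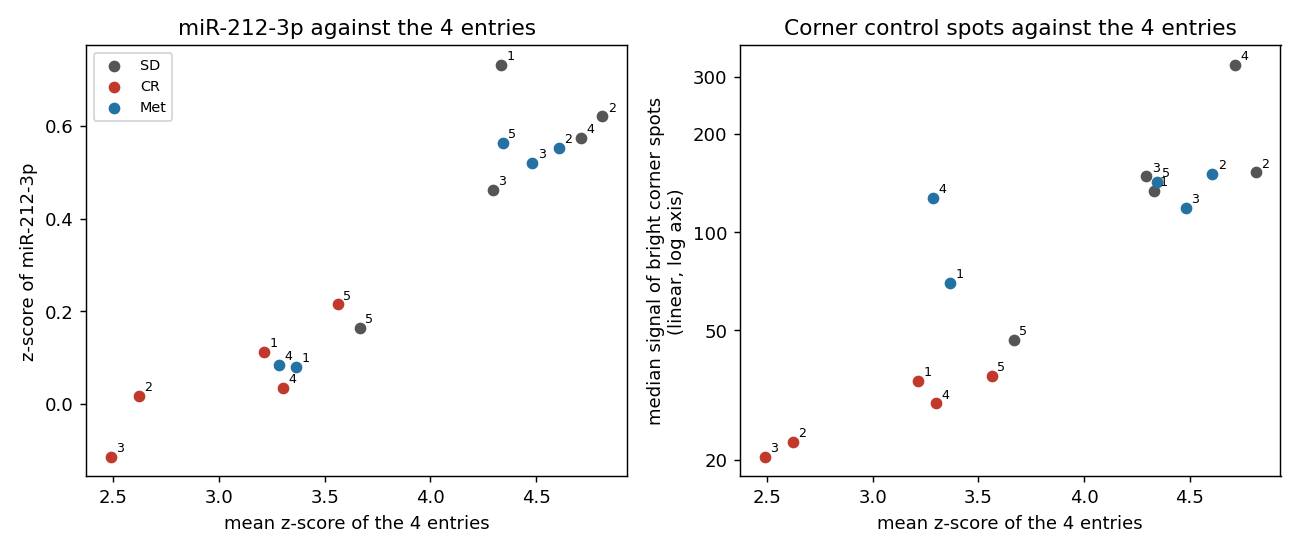
z-score of miR-212-3p (left) and median signal of the bright corner control spots on a log axis (right) against the mean z-score of the 4 entries, with 1 point per mouse colored by diet and labeled by mouse number. The CR mice lie at the lower left in both panels. On the corner spots, Met mice 1 and 4, at 69.8 and 127, lie above the CR mice at similar mean z-scores.

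miRNAs of blood and endothelial cells were compared between groups as a description, without a test. Of 6 such markers (miR-142-3p, miR-150-5p and miR-223-3p of leukocytes, miR-144-3p and miR-451a of red cells and miR-126-3p of endothelium), 5 had a lower mean z-score in CR than in SD and 3 had a lower one in Met than in SD. Their summed z-score ranged from 0.215 to 3.98 in CR, from 2.81 to 3.88 in SD and from 2.79 to 3.51 in Met. The groups thus overlapped. None of the 6 was undetected in any group, but miR-144-3p was detected on only 2 SD arrays, 1 CR array and 2 Met arrays. Of all 178 tested entries, 104 had a lower mean z-score in CR than in SD and 78 a lower one in Met than in SD. For the red cell miR-451a the mean z-score and its standard deviation over 5 mice were 0.921 ± 0.847 (CR), 1.55 ± 0.350 (SD) and 1.45 ± 0.266 (Met). The part of these cells in the values of the tRNA-related entries was not tested.

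The 9 withdrawn entries from miR-2132 to miR-2146, which are also no longer listed as miRNAs, had differences of mostly the opposite sign between CR and SD. Of the 9, 1 was below 0, against 104 of all 178 tested entries. Their median difference between CR and SD was 0.260, against -1.26 for the 4 and -0.0161 for all tested entries. Between CR and SD, 3 of the 9 met the limits as higher and 1 as lower in CR, against 5 and 26 of all 178 tested. Between CR and Met, 6 of the 9 met them as higher and 0 as lower, against 8 and 29 of all 178. Between Met and SD, 1 of the 9 met the limits, as lower in Met, against 2 of all 178. The median difference of the 9 was -0.105 there, against -0.355 for the 4 tRNA-related entries.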

How the data were processed

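Liver RNA of 15 mice (5 each of SD, CR and Met) was measured, each mouse on its own array. The RNA was labeled with Cy3 at its 3′ end, hybridized to 1-color Agilent mouse miRNA arrays and read with Agilent Feature Extraction 11.5.1.1. The authors deposited the intensity of each spot, without normalization between arrays, together with flags of the software that are 0 or 1. The authors also deposited a score per spot, which differed by at most 0.0005 from a z-score of the natural log of the median spot signal, computed over all 14635 spots of an array. The same z-scores were computed here from the intensities. Outlier spots were left out, the spots of a probe were averaged, and then the probes of an entry.

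Entries that every array of some group detected (178 of 696) entered a limma 3.58.1 fit (R 4.3.3) of the 15 arrays together, with a variance trend and Benjamini-Hochberg adjustment over all 178. The step was tested on simulated data with known shifts. The limits of p (0.05), adjusted p (0.3) and Z ratio (1.5) were those of the study's methods, with limma's p in place of the pairwise z-test. Unscaled log2 signals used the software's background-subtracted intensity with a floor of 1. The rest was done with matplotlib 3.10.9, scipy 1.17.1, pandas 2.3.3 and numpy 2.4.6 under Python 3.11.15. With 5 arrays in a group, their number limits the precision. Mice share replicate numbers across groups, and no pairing was assumed.

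The entries described and the lists were chosen with earlier results of these data known. Named entries are all those matching the 3 names, and the 3 other tested entries whose z-scores correlated best with their mean. The alternatives were 2 percentile scalings, quantile normalization, normexp (offset 50), total gene signal, the deposited table, other filters, outlier spots kept, the brightest probe, the z-test, fits of 2 groups, the slide or the replicate number as a block, arrays of 1 slide, and leaving out each mouse. Unscaled log2 signals and scaling to positive control spots were added after seeing the data.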

Additional observations from a re-analysis of the deposited data

Results flagged for a closer look

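Met mouse 2 stood apart in the signal left after removing the 4 entries, at 1.52 against 1.73 to 1.80, in units of 1000000, in the other 4 Met mice. Its distance to the nearest of them, relative to the range of the group, exceeded Dixon's 95% limit, which chance exceeds in about 1 of 20 groups. The limit was applied to 30 sets of 5 values, and 1 exceeded it. In the same mouse the 4 entries took 47.2% of the summed signal, the highest share in Met.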

How the results depend on the processing

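All 380 alternative Z ratios of the 4 entries, over 3 comparisons, were below 0, and no entry met the limits between Met and SD under any of 32 alternatives. Nothing is read from the shared sign. The other filters, the z-test, the fits of 2 groups and the replicate block left every Z ratio unchanged. So did leaving out a mouse of the group not compared. The comparisons with CR also share the CR arrays by which the entries were chosen. The median Z ratio of the 4 was -7.59 for CR against SD, -5.87 for CR against Met and -5.83 for Met against SD. Leaving out 1 mouse at a time moved it to between -7.93 and -7.08, between -6.65 and -5.11, and between -6.95 and -2.91. With the software's total gene signal it was -1.19 for CR against SD and -0.784 for CR against Met, where 1 of the 4 met the limits in each, and -0.925 for Met against SD. On the unscaled log2 signal, an alternative chosen after seeing the data, it was -4.29 for CR against SD, -3.59 for CR against Met and -2.04 for Met against SD. Scaling to positive control spots, also chosen after seeing the data, gave -5.02, -4.35 and -2.10. Each Z ratio is divided by the spread of differences in its own setting, so its size is not directly comparable between settings. With total gene signal, the entries that missed the limits in CR against SD had Z ratios from -1.40 to -0.860, short of the limit of 1.5. With the slide as a block 0 of the 4 met the limits. The causes were not tested.

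Over all tested entries, 31 met the limits for CR against SD (26 lower, 5 higher), 37 for CR against Met (29 lower, 8 higher) and 2 for Met against SD. Leaving out 1 mouse gave 26 to 36, 29 to 42 and 1 to 9, the 9 without SD mouse 5 and 1 without SD mouse 2, 3 or 4 or Met mouse 4 or 5. The 75th percentile over detected probes gave 120 (10 lower, 110 higher), 116 (15 lower, 101 higher) and 0, with median log2 differences of 0.37 and 0.30 in the comparisons with CR. Over all probes it gave 32 and 31, all lower in CR, and quantile normalization gave 39 (19 lower, 20 higher) and 47 (26 lower, 21 higher). Total gene signal gave 20, 18 and 0, and the slide as a block 17, 34 and 0. Slide 2 alone gave 12 for CR against Met. For Met against SD, quantile normalization and slide 1 alone gave 0, no filter 1, the fit of 2 groups 4 and the z-test 13. The settings with 0 calls by limma had 2 to 14 entries at an unadjusted p of 0.05 or less. CR against SD had no slide with both groups. The replicate block gave 32, 37 and 2 and left the median Z ratios of the 4 entries at -7.59, -5.87 and -5.83. The deviations of same-numbered mice of different groups had correlations from -0.562 to 0.714, with a median of -0.115 (15 pairs). The median for differently numbered mice was 0.0681, so the numbers were not taken as pairs.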
